A study of Mus musculus with 12 samples.

Results

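Interleukins are the secreted proteins through which white blood cells, epithelium and stroma signal to each other, and the mouse oviduct was examined here for all genes whose annotated symbol begins with Il and a number. The rule found 101 of the 25697 probes on the array, which stand for 72 of 16593 named genes and include ligands, receptor chains, decoys, antagonists and 1 enzyme. Of the 72 genes, 33 were detected on at least 3 of the 12 arrays, and these 33 were tested among 10144 genes. Il17rb, the receptor chain for IL-25, had the lowest p-value of the 33, and its level was 2.82-fold to 3.27-fold higher at metestrus and diestrus than at proestrus and estrus.

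The tissue was whole oviduct of ICR mice, an outbred stock, taken at 6 weeks of age. There were 3 arrays for each of 4 stages of the estrous cycle, namely proestrus, estrus, metestrus and diestrus, with no treatment or altered allele named for any group. Total RNA was turned into biotin-labelled cRNA, and an Illumina bead array of 1 colour read its abundance per probe. Nothing in the labels tells whether the 3 arrays of a stage came from separate animals, so the spread that the tests use may be technical. The design asks which genes are expressed differently between stages.

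An interleukin acts by joining chains of its receptor. Type I and II cytokine receptors, such as those for IL-13, IL-15 and IL-10, pass the signal through Janus kinases to STAT proteins, whereas the IL-1 and IL-18 receptors use the adaptor Myd88 and the IL-17 receptors use the adaptor Act1. The same ligand can also meet a decoy receptor, a soluble binding protein or a receptor antagonist, which hold it back from signalling. In the female tract these molecules take part in defence against microbes and in the traffic of white blood cells around ovulation.

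The arrays fell into 2 sets that are unrelated to stage. Replicate 1 of each stage had a median raw intensity of 139 to 156 and 55.6% to 58.1% of probes detected, against 99.3 to 105 and 48.6% to 51.8% for replicates 2 and 3. Interleukin probes followed this, 35 to 44 of them being detected per replicate 1 array and 30 to 34 per array otherwise. For 6 of the 33 tested genes the replicate 1 arrays did not overlap the other arrays after normalisation, where 23.3% of all tested genes behaved so. Il10rb, a chain shared by several receptors including that for IL-10, was the widest, at a mean log2 level of 9.28 on replicate 1 arrays and 8.17 on the rest. The replicate number follows this split. The main tests have no block for it, which leaves the shift in their spread, and genes that passed only with that block are named as such.

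Marker genes bore out the labelled tissue. All 5 tested genes of an oviduct epithelium list, which includes the oviduct glycoprotein Ovgp1, and all 5 of a smooth muscle list were detected on all 12 arrays. The mean log2 level of the epithelial list lay between 11.12 and 11.56 on every array, and none of its genes passed the F test. In whole tissue, fewer cells of a type and less RNA per cell cannot be told apart.

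A gene counted as detected on an array when its detection p was under 0.01. By that measure 18 of the 72 genes were detected on all 12 arrays, 15 on 3 to 11 arrays, 10 on 1 or 2 arrays and 29 on none. The 45.8% of interleukin genes that could be tested compares with 61.1% of all named genes, and the 25% detected on all arrays with 50.1%. At a detection p under 0.05, 43 genes reached 3 arrays.

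More receptor chains than ligands were measurable. Of 32 receptor genes, 19 were tested and 10 were detected on all arrays, while of 33 ligand genes 10 were tested and 6 were detected on all arrays. The ligands found on all arrays were Il7, Il15, Il16, Il17d, Il18 and Il33, which are made by epithelial and stromal cells as well as by white blood cells. Il3, Il4, Il5, Il9, Il10, Il17f, Il21 and Il22, which activated T cells can make, were detected on no array. Il17a, the founding member of the IL-17 family, Il6 and Il11 were each detected on 1 array, and Il13 on 4. Il24, Il2rb and Il1rap, the accessory chain of the IL-1 receptor, were also found on 1 array, and Il1f10, Il20ra, Il31ra and Il5ra on 2. The other ligands with no detection were Il12a, Il17b, Il17c, Il19, Il1a, Il1f6, Il1f9, Il20, Il25 and Il27, and the other receptor chains were Il18rap, Il1rapl2 and Il22ra1. Raw intensities of the genes with no detection lay between 57.6 and 127 on all arrays.

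The receptors on all 12 arrays were Il3ra, Il6ra, Il10rb, Il13ra1, Il17rb, Il17rc, Il17rd, Il17re, Il18r1 and Il20rb. Among chains that were not detected on any array were Il2ra, the alpha chain of the IL-2 receptor that marks activated T cells, Il9r, Il12rb2, Il21r and Il23r. Of the 6 decoys, binding proteins and antagonists, Il18bp, Il13ra2 and Il1rn were tested and Il1r2, Il22ra2 and Il1f5 were not detected. The enzyme Il4i1, an amino acid oxidase, was detected on all arrays, but its near-identical copy Il4i1b could share its signal.

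**Figure D1:**
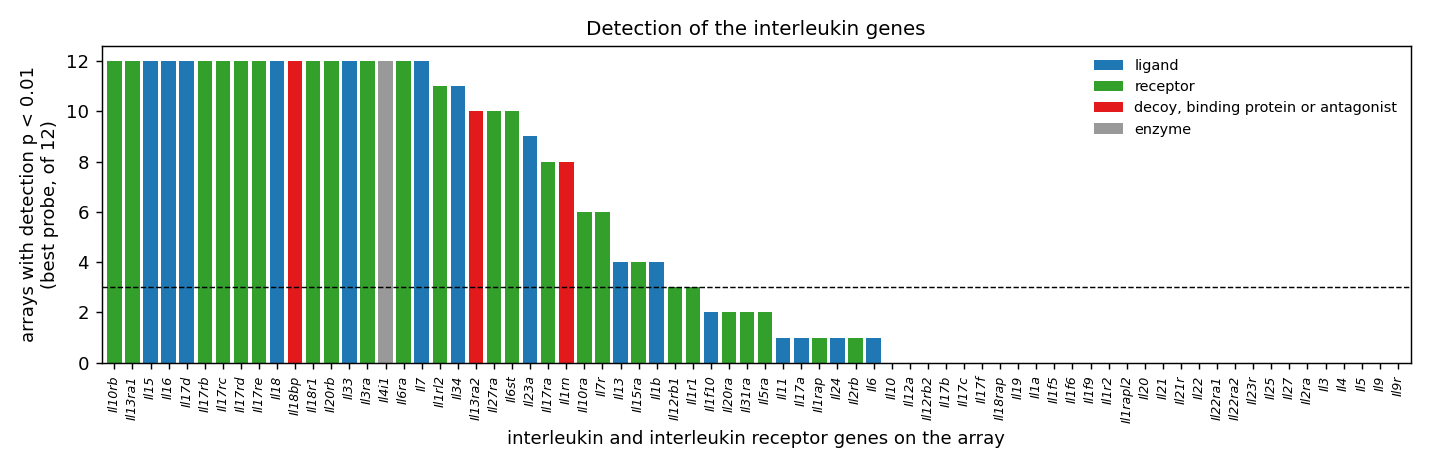
Number of arrays, of 12, on which each of the 72 interleukin genes was detected at a p under 0.01, by role. The 18 genes at full height include 10 receptors and 6 ligands, and 29 genes stand at 0.

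Levels from here on are normalised intensities on a log2 scale, and a level is compared only with that of the same probe. Adjusted p-values come from limma and were adjusted by the Benjamini-Hochberg method over all 10144 genes. Across the 4 stages 3 of the 33 genes passed the F test at an adjusted p of 0.05, namely Il17rb, Il13ra2 and Il15ra, where 5.37% of all genes tested passed. Leaving out proestrus 3, estrus 1, estrus 2, metestrus 2 or metestrus 3 left a count of 1, with Il17rb as the gene that passed each time. Over all genes 351 to 495 passed in these fits, against 545 with every array. With the replicate block 13 of 33 passed, or 39.4%, where 16.4% of all genes did.

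Il17rb encodes a receptor chain that binds IL-25, also called IL-17E, and pairs with the chain encoded by Il17ra. IL-25 is known for driving type 2 responses, the arm of immunity that acts against parasites and in allergy, in lymphoid cells and other cells. The 2 genes with the lowest F test p-values, Il17rb and Il13ra2, have start regions of contrasting base composition, which are printed from RefSeq (GRCm38.p6) to show it. Capitals mark CG dinucleotides and the letters TATAAA, and each stretch runs from 250 bases before to 50 bases after the start, on the minus strand, at chr14:30008847-30009146 for Il17rb and chrX:147429143-147429442 for Il13ra2.
Il17rb: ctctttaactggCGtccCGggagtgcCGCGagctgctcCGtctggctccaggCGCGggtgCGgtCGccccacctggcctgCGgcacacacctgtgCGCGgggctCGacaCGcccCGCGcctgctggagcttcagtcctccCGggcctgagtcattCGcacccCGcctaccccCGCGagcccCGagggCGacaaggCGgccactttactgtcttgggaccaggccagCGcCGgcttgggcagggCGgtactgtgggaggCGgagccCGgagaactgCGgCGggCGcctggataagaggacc
Il13ra2: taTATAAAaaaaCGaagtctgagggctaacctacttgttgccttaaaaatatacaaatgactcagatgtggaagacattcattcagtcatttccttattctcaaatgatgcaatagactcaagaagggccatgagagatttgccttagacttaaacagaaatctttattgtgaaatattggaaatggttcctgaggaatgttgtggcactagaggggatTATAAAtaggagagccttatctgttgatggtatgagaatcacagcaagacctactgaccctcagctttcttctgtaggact
The Il17rb stretch has 32 CG dinucleotides and a GC content of 72%, and 9.52% of the 32851 such windows in the table have at least as many CG. The Il13ra2 stretch has 1 CG, a GC content of 37.7% and TATAAA at positions -31 and -248 relative to the start, and 14.1% of windows have as few CG. The median window has 7 CG and 52.7% GC.

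The Il17rb level was 7.65, 7.71 and 7.72 on the proestrus arrays and 7.49, 7.98 and 8.02 on the estrus arrays. It was 9.49, 9.34 and 9.37 at metestrus and 9.25, 9.34 and 9.38 at diestrus. The 6 arrays of the later stages all lay above the 6 of the earlier stages, so the gene split the cycle into a low and a high part. Raw intensities showed the split within each array set, at 381 and 370 on proestrus 1 and estrus 1 against 1050 and 999 on metestrus 1 and diestrus 1.

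From estrus to metestrus Il17rb rose by 1.57 ± 0.14 (SE of the fit) on the log2 scale, or 2.97-fold, with an adjusted p of 9.1e-05. Metestrus exceeded proestrus 3.27-fold (adjusted p = 4.9e-05), and diestrus exceeded proestrus 3.1-fold (7.6e-05) and estrus 2.82-fold (1.7e-04). The steps from proestrus to estrus (0.14 ± 0.14) and from metestrus to diestrus (-0.08 ± 0.14) did not pass. In the F test, the gene ranked 20 of 10144 (adjusted p = 2.3e-05). On the authors' deposited intensities without the block the 4 differences were 1.66 to 1.84 in size and their adjusted p-values 0.099 to 0.15.

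The other chains of the IL-17 receptor family had patterns of their own. Il17ra, the chain common to receptors for most IL-17 ligands and the partner of Il17rb, had levels of 5.91, 6.21 and 6.29 at proestrus and 5.63, 5.89 and 5.93 at estrus. It had 5.52, 5.59 and 5.43 at metestrus and 5.51, 5.61 and 4.87 at diestrus. All 3 proestrus arrays lay above all 6 metestrus and diestrus arrays, the reverse order of Il17rb, and the probe was detected on all 6 proestrus and estrus arrays but on 1 array each at metestrus and diestrus. Its raw intensities were close to background, at 87.2 to 161, so no fold is given. Proestrus exceeded diestrus by 0.80 ± 0.19 (adjusted p = 0.034), although the F test gave 0.089 (0.029 with the replicate block). Without diestrus 3, the lowest array, the difference was 0.58 (adjusted p = 0.093), and it also missed the threshold without proestrus 2 or 3, estrus 2 or 3, or metestrus 2 or 3 (adjusted p of 0.05 to 0.13), without background correction (0.064) and in a fit of the 2 stages alone (0.1).

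Il17re, the chain that receives IL-17C at epithelial surfaces, had levels of 8.91, 9.77 and 9.85 at proestrus and 9.18, 9.94 and 9.89 at estrus. Its levels were 9.88, 10.19 and 10.13 at metestrus and 9.54, 10.33 and 10.21 at diestrus. On this probe proestrus was the lowest stage within each array number, and the replicate 1 arrays were below the others at every stage. The other kept probes, also detected on all arrays, had estrus 3 below proestrus 3 (9.16 against 9.28, and 5.70 against 6.31). Their differences between metestrus and proestrus were 0.32 and 0.07. For the probe used, the F test gave an adjusted p of 0.68 without the block and 0.023 with it, and metestrus then exceeded proestrus by 0.56 ± 0.13 (adjusted p = 0.014). Il17c itself was not detected on any array.

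Il17rc, the partner chain of Il17ra for IL-17A and IL-17F, read 9.91, 9.91 and 9.81 at proestrus, 9.78, 10.21 and 9.97 at estrus, 9.99, 9.83 and 10.03 at metestrus and 10.14, 10.26 and 9.94 at diestrus (adjusted p = 0.89). Il17rd, which also restrains fibroblast growth factor signalling, read 7.70, 7.73 and 7.73 at proestrus, 7.57, 7.56 and 7.50 at estrus, 7.36, 7.74 and 7.49 at metestrus and 7.63, 7.60 and 7.59 at diestrus (0.85). The stages of both genes lay within 0.24 of each other in the mean. Il17d, the ligand of the family that was detected on all arrays, read 6.99, 7.0 and 7.04 at proestrus, 6.91, 7.29 and 7.21 at estrus, 7.13, 7.51 and 7.72 at metestrus and 7.48, 7.01 and 7.47 at diestrus (0.52). None of these 3 passed with the replicate block, whose adjusted p lay at 0.51, 0.44 and 0.2 in that order. Il25, the ligand of Il17rb, was detected on none of the 12 arrays.

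**Figure D2:**
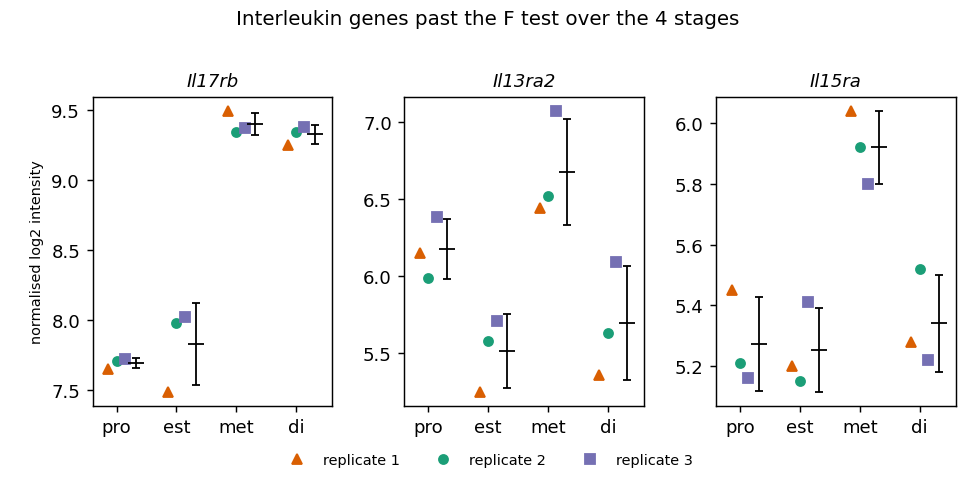
Normalised log2 level on every array (points, with a symbol for each replicate number) and stage mean with SD (black bars, n = 3) of the interleukin genes that passed the F test, by stage from proestrus (pro) to diestrus (di). Il17rb shows 2 low and 2 high stages, with 7.49 to 8.02 at proestrus and estrus and 9.25 to 9.49 at metestrus and diestrus.

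Il13ra2 binds IL-13 tightly and is known mainly as a decoy, whereas Il13ra1 forms the signalling receptor with the IL-4 receptor alpha chain. The Il13ra2 level was 6.15, 5.99 and 6.38 at proestrus and 5.25, 5.58 and 5.71 at estrus. It was 6.44, 6.52 and 7.07 at metestrus and 5.36, 5.63 and 6.09 at diestrus. The level thus alternated from stage to stage, and all metestrus arrays were above all estrus and all diestrus arrays.

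The F test gave Il13ra2 an adjusted p of 0.026, and its rise from estrus to metestrus was 1.17 ± 0.22, or 2.24-fold (adjusted p = 0.015). The drop of 0.98 from metestrus to diestrus had an adjusted p of 0.37, in a comparison where 0.069% of all genes passed. With the replicate block this drop passed (adjusted p = 0.0054), as did the lower level at estrus than at proestrus (-0.66 ± 0.12, adjusted p = 0.012). Also with the block, metestrus exceeded proestrus by 0.51 (adjusted p = 0.017, against 0.26 without) and proestrus exceeded diestrus by 0.48 (0.022, against 0.29). On the authors' deposited intensities the drop from metestrus to diestrus did not pass with the block. The probe was close to background, with raw intensities of 97.5 to 194, and it was detected on 2 of 3 arrays at estrus and at diestrus. Leaving out estrus 1, estrus 2 or metestrus 3 moved the adjusted p of the estrus to metestrus rise to between 0.057 and 0.065, and the F test gave 0.05 to 0.078 without any of these or proestrus 3, metestrus 2 or diestrus 2.

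Il13ra1 was measured at 9.47, 9.11 and 8.95 at proestrus and 9.62, 9.02 and 9.11 at estrus. It was 10.25, 9.45 and 9.30 at metestrus and 9.81, 9.46 and 9.38 at diestrus. Replicate 1 arrays stood above the others at each stage, and within each array number metestrus exceeded proestrus. The F test gave 0.70 without the block and 0.035 with it, where metestrus exceeded proestrus by 0.49 ± 0.12 (adjusted p = 0.018).

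Il13, the ligand of both, was detected on 4 of 12 arrays, 1 at estrus, 1 at metestrus and 2 at diestrus. Its levels were 4.75, 5.27 and 4.80 at proestrus, 5.25, 5.49 and 5.22 at estrus, 5.36, 5.19 and 4.82 at metestrus and 5.55, 5.40 and 5.58 at diestrus. Proestrus was not well above background on any array and the other stages lay close to it, so no fold is given.

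Il15ra is the chain that holds IL-15 on the surface of a cell and presents it to lymphocytes nearby. Its level was 5.45, 5.21 and 5.16 at proestrus, 5.20, 5.15 and 5.41 at estrus, 6.04, 5.92 and 5.80 at metestrus and 5.28, 5.52 and 5.22 at diestrus. The metestrus arrays lay above all the others. The probe was detected on 4 arrays, 2 of them at metestrus and none at estrus. Metestrus was thus at least 1.31-fold above estrus (adjusted p = 0.024), and it exceeded proestrus by 0.65 ± 0.14 (adjusted p = 0.018). The gene entered the tests only with its detections at metestrus, so these calls and its F test are not independent of the filter. When no detection filter was applied, the F test gave an adjusted p of 0.027 and the rise over estrus 0.023.

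The F test's adjusted p of 0.028 for Il15ra became 0.086 with an offset of 50 and 0.16 without background correction. It was 0.051 to 0.11 without any 1 of 8 arrays, namely proestrus 2 or 3, estrus 1 or 2, any of metestrus, or diestrus 1. The rise over estrus had an adjusted p of 0.066 to 0.13 without estrus 1 or 2 or metestrus 1 or 2, and the difference from proestrus had 0.06 to 0.078 without proestrus 2 or 3 or metestrus 2. A second probe of the gene, detected on too few arrays to be kept, read 4.89, 5.39 and 5.84 at metestrus and 4.89, 5.67 and 5.05 at estrus, which overlap. Il15, the ligand, was detected on all arrays by the probe used, and its 3 kept probes each had an adjusted p of 1.

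The IL-18 system held a receptor, a binding protein and a ligand that were each detected on all 12 arrays. IL-18 is made as a precursor in epithelial cells and macrophages and calls forth interferon gamma, and the product of Il18bp binds and blocks it. Il18 itself had levels from 6.76 to 7.40, with stage means within 0.14 of each other (adjusted p = 1). The adjusted p of the gene was 0.79 with the block.

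Il18r1, the chain that binds IL-18, had levels of 7.66, 7.69 and 7.99 at proestrus, 7.92, 8.23 and 8.25 at estrus, 7.82, 8.55 and 8.67 at metestrus and 8.70, 8.64 and 8.89 at diestrus. Proestrus was lowest on average, and all 3 diestrus arrays were above all proestrus and estrus arrays. Diestrus exceeded proestrus 1.95-fold (0.97 ± 0.21, adjusted p = 0.022), with an F test at 0.074 (0.005 with the block). Metestrus exceeded proestrus by 0.56 and diestrus exceeded estrus by 0.61 only with the block (adjusted p of 0.023 and 0.029, against 0.17 and 0.25). Without proestrus 1 or 2 or any diestrus array, the adjusted p of the diestrus to proestrus difference without the block was 0.054 to 0.092. Il18rap, the accessory chain, was not detected on any array.

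Il18bp had the opposite order, at 7.12, 7.63 and 7.57 at proestrus, 6.42, 7.36 and 7.01 at estrus, 6.09, 6.80 and 6.60 at metestrus and 6.21, 6.90 and 6.43 at diestrus. The proestrus arrays lay above all metestrus and diestrus arrays, and replicate 1 was the lowest array at each stage. Without the block no comparison passed (F test, adjusted p = 0.16). With it the F test gave 4.4e-04, and proestrus exceeded diestrus by 0.92 ± 0.11 (adjusted p = 3.0e-04) and metestrus by 0.94 ± 0.11 (2.7e-04).

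Il33 is a cytokine stored in the nuclei of epithelial and stromal cells and released on damage. Its level was 7.08, 6.69 and 6.63 at proestrus, 7.53, 6.95 and 7.15 at estrus, 7.98, 7.27 and 7.38 at metestrus and 7.81, 7.48 and 7.68 at diestrus. In each array number proestrus was lowest, and the 3 proestrus arrays did not overlap those of metestrus or diestrus. Diestrus exceeded proestrus 1.81-fold (0.86 ± 0.22, adjusted p = 0.043). The F test gave 0.10, and 0.0011 with the block, where metestrus also exceeded proestrus (0.75 ± 0.11, adjusted p = 0.0011).

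The Il33 difference between proestrus and diestrus had an adjusted p of 0.11 under median scaling of the arrays, and of 0.053 to 0.15 without proestrus 2 or 3, estrus 2 or 3, metestrus 3 or any diestrus array. Il1rn, the antagonist that occupies the IL-1 receptor, was not detected on any proestrus array, where it read 4.91, 5.59 and 5.55. It read 5.75, 6.06 and 6.10 at estrus, 5.55, 6.10 and 5.51 at metestrus and 5.74, 6.14 and 6.33 at diestrus, so that estrus and diestrus did not overlap proestrus. With the block diestrus was at least 1.35-fold (adjusted p = 0.0078) and estrus at least 1.26-fold (0.049) above proestrus, and without it neither passed (0.11 and 0.49). Of the 3 probes of Il1rn the others were detected on no array, with stage means of 4.51 to 4.63 and 4.49 to 4.59.

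The rest of the IL-1 family showed little. Il1b, the inflammatory ligand, was detected on 4 arrays with levels of 5.20 to 5.80, Il1r1, its receptor, on 3 arrays with 4.58 to 5.49, and Il1rl2, the receptor for the IL-36 cytokines, on 11 arrays with 5.77 to 6.33. All 3 had an adjusted p of at least 0.98. Il1a and Il1r2, a decoy receptor, were not detected.

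**Figure D3:**
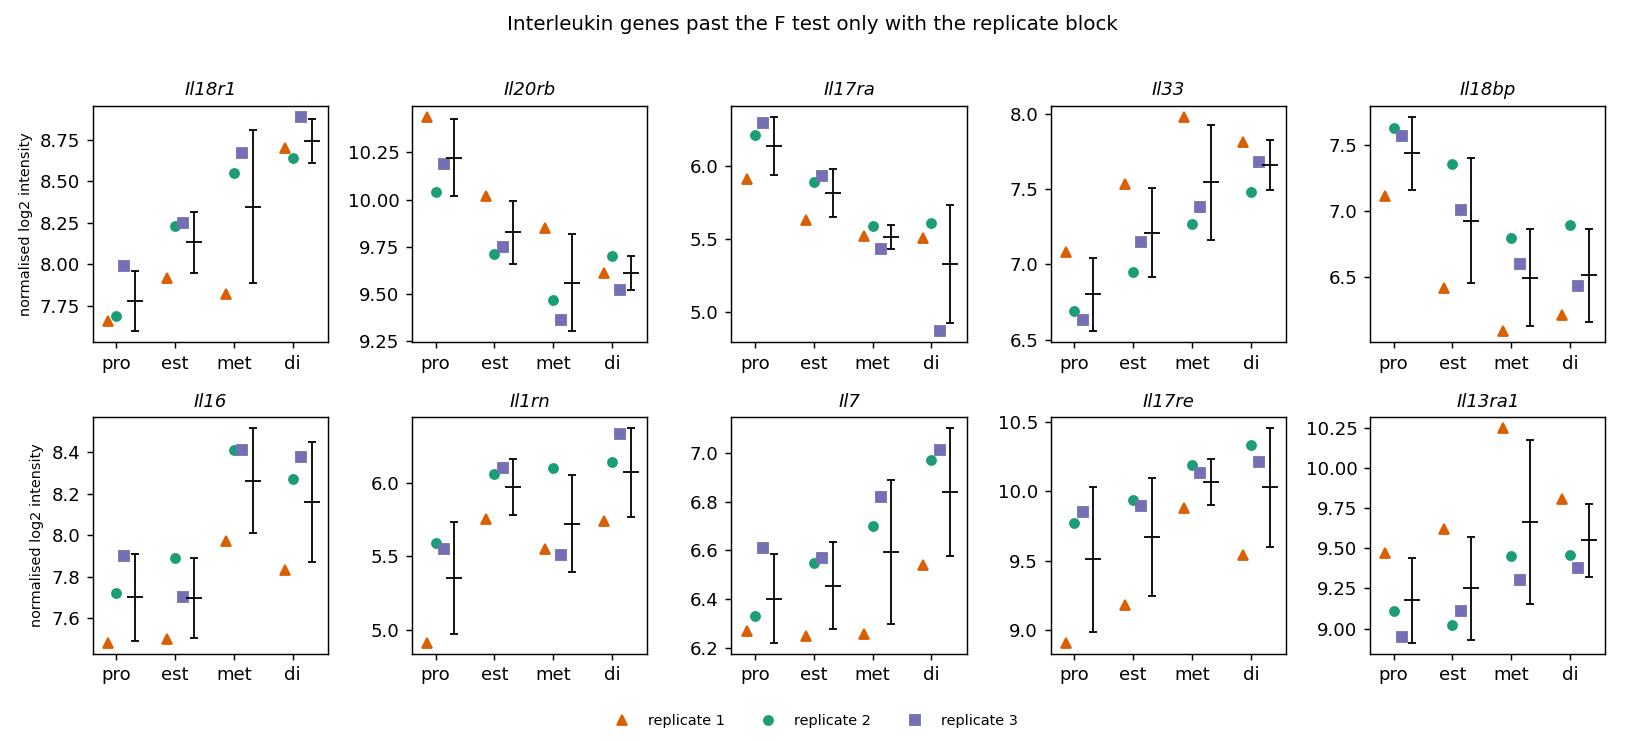
Normalised log2 level on every array (points, with a symbol for each replicate number) and stage mean with SD (black bars, n = 3) of the 10 interleukin genes that passed the F test only with the replicate block, by stage. Replicate 1 (triangles) is the lowest array at every stage for Il18bp and Il17re and the highest for Il33 and Il13ra1.

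Il20rb is a chain of the receptors for IL-19, IL-20 and IL-24, cytokines that act on epithelium. Its level was 10.44, 10.04 and 10.19 at proestrus, 10.02, 9.71 and 9.75 at estrus, 9.85, 9.47 and 9.36 at metestrus and 9.61, 9.70 and 9.52 at diestrus. Every proestrus array was above every array of the other 3 stages. Proestrus exceeded metestrus 1.59-fold (0.67 ± 0.16, adjusted p = 0.034), it exceeded diestrus by 0.62 (0.052, or 0.0049 with the block), the F test gave 0.082 (0.0069 with the block), and the second kept probe differed by 0.73 in the same direction. Without any 1 of proestrus 1, 2 or 3, estrus 2 or 3, metestrus 2 or 3 or diestrus 3, the adjusted p was 0.051 to 0.12. The ligands Il19 and Il20 were not detected, Il24 was detected on 1 array, and the partner chains Il20ra and Il22ra1 were detected on 2 and 0 arrays.

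Il10ra, the chain that binds IL-10, was detected on all 6 metestrus and diestrus arrays and on none of proestrus or estrus. Its levels were 5.23, 5.60 and 5.58 at proestrus, 5.18, 5.39 and 5.01 at estrus, 5.27, 6.11 and 5.84 at metestrus and 5.39, 5.73 and 5.86 at diestrus, with stages that overlap. Metestrus was at least 1.16-fold above estrus, with an adjusted p of 0.31 (0.045 with the block). The gene entered the tests only through its detection at metestrus and diestrus, so this comparison is not independent of the filter. Il10rb, its partner, did not differ beyond the spread of its arrays (adjusted p = 1).

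Among ligands of lymphoid and myeloid cells, Il16, a chemoattractant that acts through CD4, read 7.48, 7.72 and 7.90 at proestrus, 7.50, 7.89 and 7.70 at estrus, 7.97, 8.41 and 8.41 at metestrus and 7.83, 8.27 and 8.38 at diestrus. All metestrus arrays exceeded all proestrus and estrus arrays. The F test gave 0.18, and 0.0033 with the block, when metestrus exceeded estrus by 0.57 ± 0.10 (adjusted p = 0.0054).

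Il7, a growth factor for lymphocytes, read 6.27, 6.33 and 6.61 at proestrus, 6.25, 6.55 and 6.57 at estrus, 6.26, 6.70 and 6.82 at metestrus and 6.54, 6.97 and 7.01 at diestrus. In each array number diestrus was highest. The F test gave 0.55 without and 0.038 with the block, and diestrus then exceeded proestrus by 0.44 ± 0.10 (adjusted p = 0.015). Il7r, the IL-7 receptor chain, was detected on 6 arrays and spanned 4.78 to 6.13 (adjusted p = 1).

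Il34, a ligand of the receptor that macrophages use for colony stimulating factor 1, read 5.50, 5.92 and 5.47 at proestrus, 5.96, 6.26 and 6.50 at estrus, 6.13, 5.83 and 6.34 at metestrus and 5.98, 6.27 and 5.66 at diestrus. Estrus lay above proestrus without overlap, by 0.61 ± 0.21, and the comparison did not pass (adjusted p = 0.38, or 0.16 with the block).

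Receptor chains of the IL-6 and IL-12 families did not pass the F test under either fit. Il6ra, which binds IL-6, read 6.68, 6.79 and 6.74 at proestrus, 6.71, 6.73 and 6.45 at estrus, 7.10, 6.67 and 6.50 at metestrus and 6.97, 7.36 and 6.83 at diestrus (adjusted p = 0.59). Il6st, the signalling chain shared across that family, read 6.51, 6.16 and 6.43 at proestrus, 6.84, 5.56 and 5.61 at estrus, 6.39, 6.32 and 5.81 at metestrus and 6.67, 6.38 and 6.22 at diestrus (0.94). Estrus held both its lowest and its highest array. Il12rb1, common to the IL-12 and IL-23 receptors, read 5.56, 4.79 and 4.90 at proestrus, 5.38, 4.73 and 4.66 at estrus, 4.91, 4.48 and 4.55 at metestrus and 5.36, 4.79 and 4.37 at diestrus. Replicate 1 exceeded the other arrays at each stage. The probe was detected on 3 of 12 arrays and on none at metestrus, so no fold is given.

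Il23a, the ligand chain of IL-23, Il27ra and Il3ra had adjusted p-values from 0.97 to 1 and spans between stage means of 0.05 to 0.5. The enzyme gene Il4i1 read 7.12, 7.49 and 7.72 at proestrus, 7.21, 7.75 and 7.90 at estrus, 7.13, 7.34 and 7.48 at metestrus and 7.42, 7.79 and 7.55 at diestrus, with an adjusted p of 0.91. Of the 10 ligands tested, none passed the F test without the block, where 5.37% of all genes did, and 3 passed with it, where 16.4% did, namely Il33, Il16 and Il7.

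**Figure D4:**
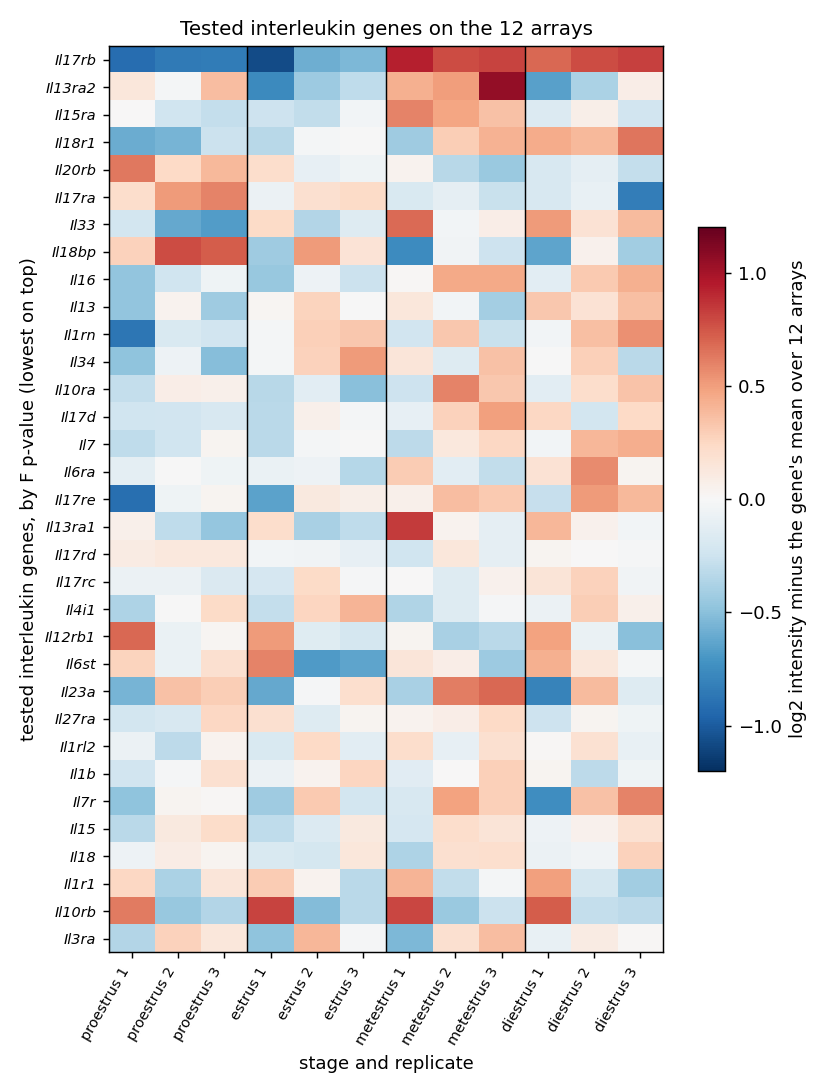
Normalised log2 level (colour) on each of the 12 arrays relative to the gene's mean, for the 33 tested interleukin genes ordered by F test p-value. Il17rb at the top shows 6 low and 6 high arrays, and genes further down vary between replicate 1 and the other arrays.

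Each of the 6 pairs of stages was also compared, and without the block every call set proestrus or estrus against metestrus or diestrus. From proestrus to estrus none of 33 genes passed, where 1.02% of all genes did. With the block 3 passed (3.06% of all genes), namely Il13ra2 and Il18bp, lower at estrus, and Il1rn, higher. From estrus to metestrus Il17rb, Il13ra2 and Il15ra rose, where 2.46% of all genes changed, and with the block 6 passed (8.35%), the additions being Il16, Il10ra and, lower, Il18bp. Without estrus 1 or estrus 2 the count without the block was 1, where the count over all genes fell from 250 to 196 and 144.

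From metestrus to diestrus none passed, where 0.069% of all genes did, and with the block 1 passed, Il13ra2, where 0.296% of all genes did. Between proestrus and diestrus 4 passed, with 4.86% of all genes changed: Il17rb, Il18r1 and Il33 were lower at proestrus and Il17ra was higher. With the block 12 passed against 16.3% of all genes, the additions being Il20rb, Il18bp and Il13ra2, higher at proestrus, and Il16, Il13, Il1rn, Il7 and Il17re, of which Il13 and Il1rn were undetected at proestrus. Il13 reached 3 arrays only with its diestrus detections, so its call is not independent of the filter. The count of 4 fell to 1 without proestrus 2 or diestrus 3 and to 2 without proestrus 3, estrus 2, estrus 3, metestrus 3, diestrus 1 or diestrus 2. Over all genes the count of 493 fell to 265 without proestrus 2, to 291 without diestrus 3 and to 271 to 412 in the others. Between estrus and diestrus Il17rb alone passed (2.22%), 2 genes did without metestrus 1 (352 of all genes, against 225 with it), and with the block 6 passed (6.9%), with Il18r1, Il33, Il16 and Il7 lower and Il18bp higher at estrus.

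Between proestrus and metestrus Il17rb and Il15ra were higher and Il20rb lower at metestrus, 3 genes where 5.33% of all genes changed. With the block 12 passed, where 16.5% of all genes did, the additions being Il13ra2, Il18r1, Il33, Il16, Il17re and Il13ra1, higher at metestrus, and Il17ra, Il18bp and Il12rb1, the last of which was undetected there. Il12rb1 reached 3 arrays only with its proestrus detection, so its call is not independent of the filter. Without proestrus 2, proestrus 3 or metestrus 2 the count without the block was 1, where the count over all genes fell from 541 to between 300 and 339. The median difference over the 33 genes was 0.19 (metestrus minus proestrus), against 0.02 over all genes, and -0.14 (proestrus minus diestrus) against -0.02. Of the 13 genes that passed the F test with the block, the mean was lowest at proestrus in 7, at estrus in 3, at metestrus in 2 and at diestrus in 1, and it was highest at metestrus in 6, at diestrus in 4, at proestrus in 3 and at estrus in 0. The same counts were not made over all 1659 genes that passed, so they describe these 13 genes and no trait particular to interleukins.

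**Figure D5:**
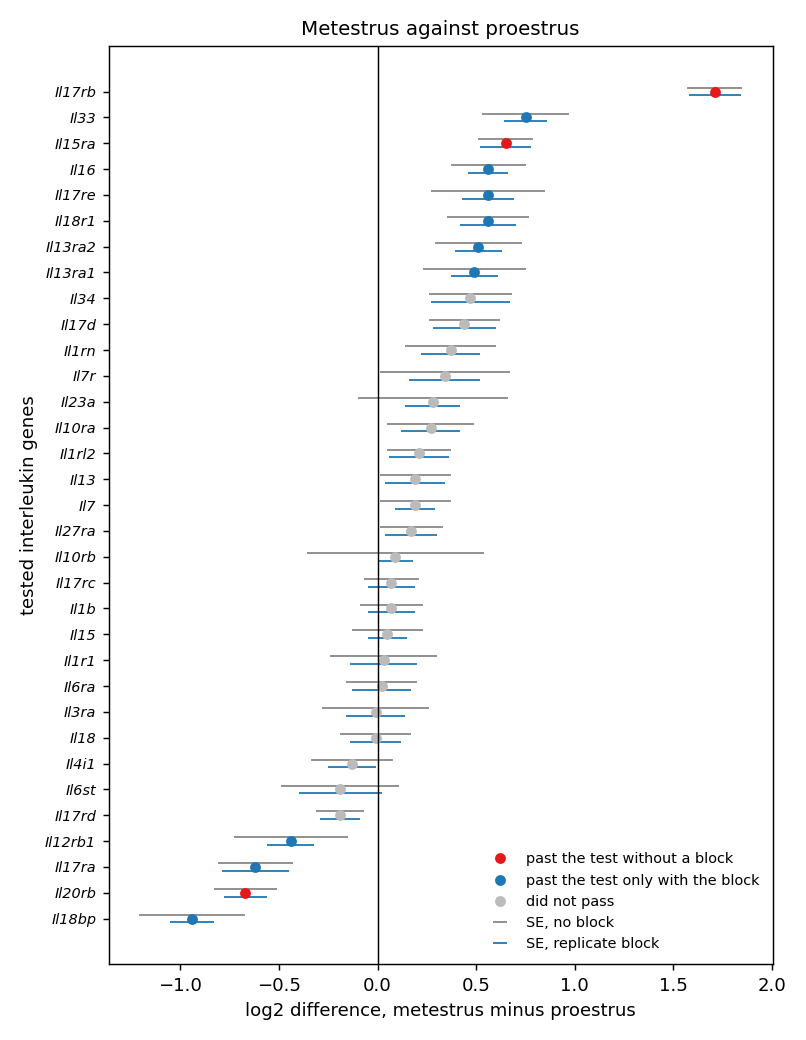
Difference in log2 level (metestrus minus proestrus) for each of the 33 tested interleukin genes (points), with the standard error of the fit without the block (grey) and with it (blue). Il17rb lies at 1.71 and Il20rb at -0.67, and genes with a blue point passed only with the replicate block.

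Signalling genes shared by these receptors were read from a list of 25, of which 23 were on the array, 20 were tested and 3 passed the F test. Of all genes tested, 5.37% passed it. Stat5a, which carries signals of IL-7, IL-15 and of prolactin, had mean levels of 9.98, 9.39, 8.45 and 8.54 from proestrus to diestrus (adjusted p = 4.6e-05). Myd88, the adaptor of the IL-1 and IL-18 receptors, had 11.21, 11.14, 11.89 and 11.75 (0.011), and Socs2, a feedback inhibitor, had 12.20, 12.03, 11.65 and 11.81 (0.046). From estrus to metestrus, where Il17rb rose, Myd88 rose by 0.75 ± 0.14 (adjusted p = 0.013) and Stat5a fell by 0.94 (0.0017). Traf3ip2, which encodes Act1, the adaptor of the IL-17 receptors, differed by -0.14 ± 0.12 over that step (adjusted p = 0.77). Its F test gave 0.63, or 0.24 with the block. With the block 5 genes passed, where 16.4% of all genes did, Tyk2 and Stat2 being the additions. The median difference of the list (metestrus minus proestrus) was 0.14, against 0.02 over all genes.

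Known targets of type 2 cytokines gave 3 of 7 tested genes past the F test, where 5.37% of all genes passed. Each of the 3 had a pattern of its own over the stages. Arg1, an arginase induced by IL-4 and IL-13, had means of 9.71, 9.01, 6.69 and 6.67 from proestrus to diestrus (adjusted p = 2.1e-07). Ccl11, the eosinophil attractant eotaxin, had 10.25, 9.03, 8.79 and 8.60 (6.8e-05). Clca1, a mucus-cell product, had 4.74, 6.95, 4.99 and 4.63 (9.5e-04), and so was highest at estrus. Of the 7 tested genes, 6 were detected on all arrays. The Clca1 means outside estrus were below the lowest detected signal of the arrays (5.15 to 5.83), so its call may not be independent of the filter. The list's median difference between metestrus and proestrus was -0.23, and 4 genes passed with the block, where 16.4% of all genes did.

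Targets of IL-17, IL-1 and IL-6 gave 2 of 6 past the F test, where 5.37% of all genes passed. Lcn2, an iron-withholding antimicrobial protein, had means of 12.69, 13.06, 11.56 and 11.84 (adjusted p = 3.8e-04), and Cxcl1, a neutrophil attractant, had 5.71, 6.82, 5.51 and 5.72 (0.0042). Both were highest at estrus, and the list's median was -0.4 for metestrus minus proestrus. Of the 6 tested genes, 4 were detected on all arrays. With the block 4 genes of the list passed, where 16.4% of all genes did. Of 8 tested related cytokines and receptors, such as the leukemia inhibitory factor receptor Lifr, none passed with or without the block, at a median of 0.19.

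Markers of other cell types were read from lists as well, with the F test passed by 5.37% of all genes, or 16.4% with the block. T cell markers gave 2 tested genes of 8 listed, with list levels of 5.44 to 6.11 over all arrays, and neither passed. B cell markers gave 1 tested gene and natural killer cell markers 2, none of which passed. Of mast cell and eosinophil markers 4 of 9 were tested and 1 passed, the mast cell protease Cpa3, with means of 5.52, 6.27, 6.83 and 7.07 from proestrus to diestrus (adjusted p = 0.0074), and the list level ran from 5.11 to 5.38 at proestrus to 5.88 to 6.28 at diestrus. None of the 4 was detected on all arrays, and the eosinophil genes Prg2, Epx and Ccr3 were not tested. The means of Cma1 and Tpsb2 also rose from stage to stage, whereas Fcer1a read 4.92, 5.39, 4.95 and 5.27. Macrophage and dendritic markers gave 1 of 5, Cd14, and neutrophil markers 1 of 8, Camp. With the block the mast cell list gave 3 and the neutrophil list 4.

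Some markers of ovarian cells, oocytes and fat cells also moved, by an F test that 5.37% of all genes passed. The list of ovarian granulosa and theca markers read 6.56 to 6.83 at proestrus, 7.94 to 8.12 at estrus, 5.53 to 6.03 at metestrus and 5.91 to 6.21 at diestrus, and all 6 tested genes passed. Of these 6, 4 were detected on all arrays. Fshr (5.07, 5.82, 4.55 and 4.80) and Star (4.72, 5.99, 5.30 and 5.29) were near background and highest at estrus, so their calls may not be independent of the filter. The oocyte list was highest at estrus, at 7.56 to 7.96, and 7 of 8 tested genes passed, although only 3 of the 8 were detected on all arrays. The fat cell list gave 2 of 2, with levels of 7.89 to 7.93 at proestrus and 8.75 to 8.86 at estrus. Whether these cells had a part in the interleukin results was not tested.

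Motifs were counted in the RefSeq start windows of the 24 tested genes that have one, on both strands. A gene was counted if any window under its symbol matched, whereas the percentages are shares of single windows. The estrogen response element, GGTCA and its reverse complement with 3 bases between them, was found in none, where 0.07% of all windows hold it. The progesterone and glucocorticoid element, GNACA and its reverse complement with 3 bases between, was also found in none, where 0.475% do. The STAT pattern, TTC and GAA with 3 bases between, was found in Il17d, Il18r1 and Il7r (8.3% of all windows), and with 4 bases between in Il18, Il18r1, Il1rn and Il33 (6.95%). The GATA-factor pattern AGATAA was found in Il13, Il13ra2, Il20rb and Il6ra (11.2%). The letters TATAAA were found in 7 genes (13.6%), Il13ra2 and Il33 among them. A match in a window is a description of its letters.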

How the data were processed

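The 12 arrays were grouped by the stage in their labels. Per the file headers, the authors deposited 2 columns for each array, raw probe intensity and detection p-value, and a matrix of processed intensity values, 21.2% to 24.9% of them negative per array. How these were made is not given in the sources used. Starting from the raw intensities, background was corrected by normexp on the detection p-values (offset 16), and arrays were quantile normalised and put on the log2 scale (neqc, limma 3.58.1, R 4.3.3). Probes detected at p under 0.01 on at least 3 arrays were kept, and a gene took its kept probe of highest mean. Of 25697 probes, 23978 had 1 symbol and 1719 none. Stage means were compared by limma with moderated F tests and 6 pairwise contrasts, and p-values were adjusted (Benjamini-Hochberg, threshold 0.05) over 10144 genes. An undetected stage was raised to the lowest detected signal of each array, which gives the values written "at least". Precision is limited by 3 arrays per stage, and the scripts were tested on simulated data.

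Replicate numbers in the labels were checked for pairing on deviations from stage means. Arrays of different stages with the same number correlated at 0.62 to 0.81 (number 1), 0.26 to 0.51 (2) and 0.36 to 0.55 (3), and numbers 2 and 3 with each other at 0.22 to 0.54, so the replicate block takes up the array set. Every gene was named by role and detection. Full values were given for Il17rb, Il13ra2, each gene past 0.05 in any test, each further gene past the F test with the block, and the next 10 by F test p-value, and the rest by range. The genes and lists were chosen with earlier results of these data known. The start sequences came from RefSeq, with 55 of the 72 genes matched by symbol.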

Additional observations from a re-analysis of the deposited data

How the results depend on the processing

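Counts of interleukin genes past the threshold depended most on the replicate block. Across the cycle the count of 3 became 13 with the replicate block and 13 with the array set as a block, 10 in replicates 2 and 3 only, 1 with the deposited values, 12 with the deposited values and the replicate block (chosen after seeing the data) and 1 of 18 genes when detection on all 12 arrays was required. Over all genes the count of 545 moved likewise, to 1659 with the replicate block, 1886 with the array set as a block, 1288 in replicates 2 and 3 only and 66 with the deposited values. It was 1440 with the deposited values and the replicate block and 491 when detection on all 12 arrays was required. With the replicate block, the array set as a block and, after these, the deposited values with the block, the count from proestrus to estrus of 0 became 3, 1 and 2, from estrus to metestrus of 3 became 6, 6 and 5, from proestrus to diestrus of 4 became 12, 12 and 9, between estrus and diestrus of 1 became 6, 5 and 4, and between proestrus and metestrus of 3 became 12, 11 and 12. From metestrus to diestrus the count of 0 became 1 under either block and stayed 0 on the deposited values with the block. In replicates 2 and 3 only, the proestrus to diestrus, estrus to diestrus and proestrus to metestrus counts were 11, 5 and 9. Over all genes they were 1466, 735 and 1090. Without any block, the deposited intensities gave 0 in the 4 comparisons that had calls, where 20 to 53 of all genes passed. From estrus to metestrus, detection on all arrays gave 1 and a fit of these 2 stages alone gave 1, as did such a fit of proestrus and metestrus. Over all genes these 3 counts were 213, 98 and 192. Leaving out 1 array gave 1 to 4 across the cycle, 1 to 3 from estrus to metestrus, 1 to 6 between proestrus and diestrus, 1 to 2 between estrus and diestrus and 1 to 4 between proestrus and metestrus. Over all genes these fits gave 343 to 672, 144 to 247, 265 to 796, 108 to 352 and 300 to 537 in that order. Il17rb passed the F test in all 24 alternatives, and no called difference reversed. The Il17ra difference between proestrus and diestrus lost its call without background correction (adjusted p = 0.064) and in a fit of the 2 stages alone (0.1). For dim probes such as Il13, Il12rb1 and Il15ra, signal over background limits the precision.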
